A study of Mus musculus with 6 samples.

Results

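The 40 genes described here act in the G2 phase, in mitosis and in cytokinesis. They were chosen by name, from Ccnb1 and Cdk1 to Ndc80, out of 55840 genes in a deposited RNA-seq table of mouse regulatory T (Treg) cells, and all 40 were found there. The groups were 3 libraries labelled WT and 3 labelled Exon2KO, which the series calls Foxp3∆2, from Treg cells of spleen and lymph nodes. Foxp3 is the transcription factor that defines Treg cells, and Exon2KO is named for the loss of its exon 2. The labels call the libraries of a group biological replicates. Strain, age, sex, the sort of the cells, and whether spleen and nodes were pooled are not given in the sources used here. Each column of the table carries a genotype and a number, 2, 6 or 20, which occurs once in each genotype; what the numbers stand for is not given, and libraries are named below by genotype and number (WT 20).

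A cell that divides copies its DNA in S phase, prepares in G2 and separates its chromosomes in mitosis. The kinase Cdk1 starts mitosis once it binds cyclin A or B, further kinases assemble the spindle, a checkpoint holds the cell until every chromosome is attached, and a ubiquitin ligase then destroys the cyclins and releases the chromosomes. Transcripts of most of these genes peak together in G2 and mitosis and are low in resting cells, so that their level in a tissue tracks the share of dividing cells. Treg cells are known to hold a larger dividing share than other CD4+ T cells in unchallenged mice.

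The libraries held 17998216 to 21003496 counts assigned to genes, so 3 counts corresponded to 0.141 to 0.169 CPM (counts scaled to a common library size, corrected by the trimmed mean of M values). Foxp3 itself was at 783, 602 and 751 CPM in WT 2, 6 and 20 and 826, 684 and 925 CPM in Exon2KO; counts of the whole gene do not check the loss of 1 exon. The labelled cell type was checked against Foxp3, Il2ra, Ctla4, Ikzf2, Cd3e and Cd4, whose summed level was 2999 to 3477 CPM in WT and 2767 to 3119 CPM in Exon2KO. Of 14919 genes with enough counts to be tested, 39 were members. Nek2, a centrosome kinase, had 41 counts in all libraries together and was not tested; its level ran from 0.154 to 0.657 CPM.

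All 39 tested members were detected in all libraries, and as a group they were lower in Exon2KO than in WT at each column number. The summed level of the 40 genes was 888, 1012 and 1920 CPM in WT 2, 6 and 20, and 737, 864 and 1234 CPM in Exon2KO 2, 6 and 20. Exon2KO was thus 17.0%, 14.7% and 35.7% lower than the WT library of the same number, and the highest Exon2KO library lay above the WT libraries 2 and 6. The group means were 1273 ± 563 CPM in WT and 945 ± 258 CPM in Exon2KO (SD, n = 3). Their difference was smaller than the SD of WT and larger than that of Exon2KO. In a bulk sample, fewer dividing cells and less of these RNAs per dividing cell cannot be told apart.

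**Figure D1:**
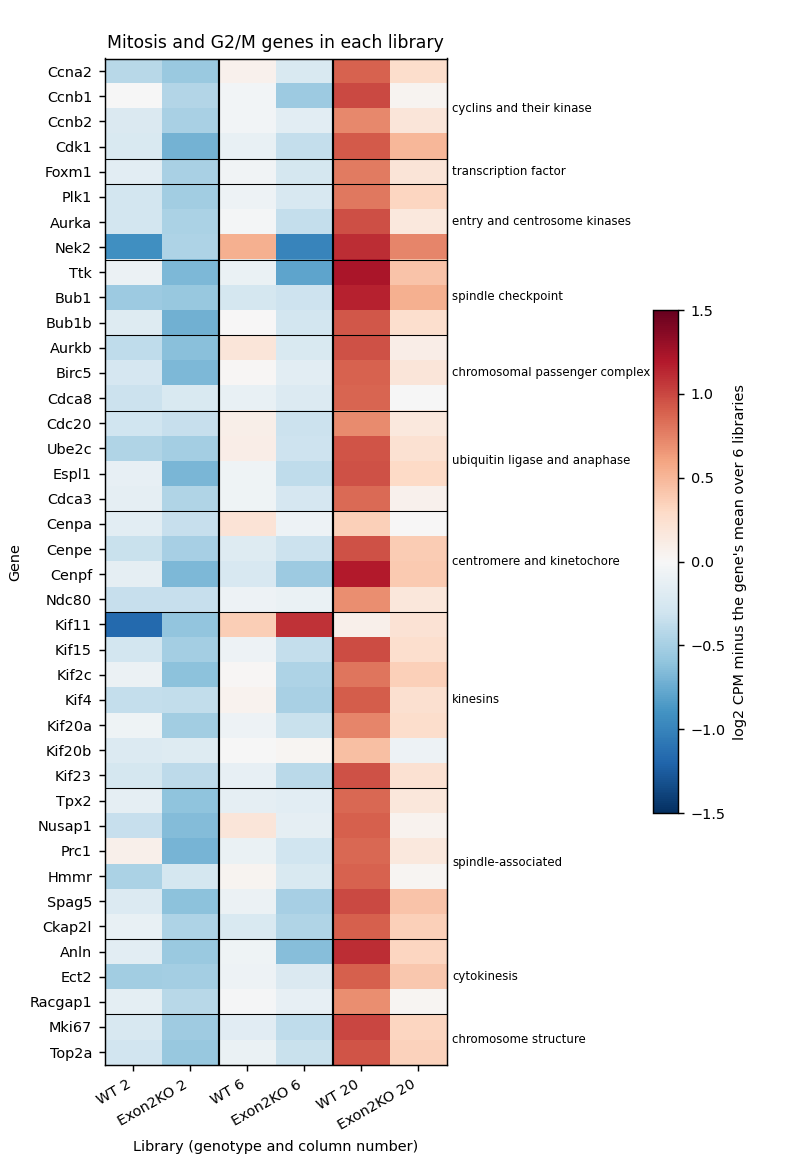
Level of the 40 genes (rows, grouped by role) in the 6 libraries (columns), as log2 CPM minus the gene's mean over the libraries, in red where above that mean and in blue where below it. WT 20 is the column with the highest level for 38 of the 39 tested genes, Exon2KO 20 comes next for most rows, and Kif11 departs from the other rows with its peak in Exon2KO 6.

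The mitotic genes also differed between the column numbers, and stood highest in number 20. In a fit with genotype and number, 36 of 39 members differed between numbers (edgeR quasi-likelihood test, adjusted p from 3.52e-06 to 0.00911), beside 10.4% of all tested genes; Cdca8, Kif20b and Hmmr did not pass. Both number 20 libraries were above the other 4 for 33 of 39 members, against 13% of all genes. WT 20 held the highest level of 38 of 39 members, against 18.8% of all genes. The level in number 20 exceeded the mean of numbers 2 and 6 by a median of 1.04 on the log2 scale in WT (0.28 to 1.55) and of 0.65 in Exon2KO (-0.26 to 1.164), where the medians of all genes were -0.0015 and -0.0060. The summed level of the 40 genes was 2.02-fold higher in WT 20 and 1.54-fold higher in Exon2KO 20 than the mean of the other libraries of that genotype. Bub1 had the largest excess in WT (1.55), with Cenpf (1.37) and Ttk (1.32) next.

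Markers of some other cell types also moved with the column number. Of 7 myeloid and dendritic cell markers, 4 were higher in both number 20 libraries than in the other 4, against 13% of all genes. They were Lyz2, Csf1r, S100a8 and S100a9. The summed level of the list was 63.5 to 77.8 CPM in number 20 against 29.6 to 34.96 CPM. The summed level of 5 germinal centre B and plasma cell markers was lower in number 20, at 11.3 to 15.95 CPM against 21.01 to 34.1 CPM, and that of 6 erythroid and megakaryocyte markers was 3.21 to 4.93 CPM against 8.17 to 15.7 CPM. Single markers below all other libraries in both number 20 libraries were 1 of 5 (Jchain) and 2 of 6 (Hbb-bs and Hba-a1). The share of all genes with this pattern was not counted, so these counts have no background to be read against. No marker of these lists was at 0 in all libraries. The part of these cells in the high levels of the mitotic genes in number 20 was not tested.

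The study asks how Treg cells with Exon2KO differ from WT. Of the 39 members tested, 38 had a negative log2 fold change of Exon2KO over WT, from -0.73 for Ttk to -0.19 for Kif20b, where 48.2% of all tested genes were negative. The median was -0.44 for the members and 0.0084 for all genes. Without the column number in the fit, no member passed an adjusted p of 0.05 (edgeR quasi-likelihood test, adjusted p from 0.448 to 0.898). In that fit 2.33% of all genes were called, 1.58% as lower in Exon2KO, and 0 members had an unadjusted p under 0.05 against 12.1% of all genes. DESeq2 also called 0 members and had 4 of 40 with an unadjusted p under 0.05. Its share of 6.9% was over 26773 genes with any count, a wider set than the 14919 genes of the other fit, so these shares are not alike. With limma-voom 0 members and 328 of 14919 genes were called. There 0 members had an unadjusted p under 0.05, and the share of all genes at that p was not counted. For no member did the WT and Exon2KO ranges fail to overlap, while 9.32% of all genes lay lower and 8.35% higher in Exon2KO without overlap.

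No label says that the column numbers pair the libraries, and the pairing was taken from correlations in these same counts. With the column number in the fit, and so under that pairing, 23 members fell in Exon2KO and none rose. Their log2 fold changes ran from -0.70 to -0.28, with adjusted p from 0.00297 to 0.0489 (edgeR quasi-likelihood test), beside 5.79% of all genes called lower and 3.93% called higher, 9.72% in all. Of the other 16, 15 had negative values from -0.46 to -0.17 with adjusted p from 0.0502 to 0.461, and Kif11 had a positive one. The biological coefficient of variation was 17.3% without the number and 8.56% with it. Leaving out both number 20 libraries left 2 members called in the fit with the number, Mki67 and Top2a, beside 6.03% of all genes. Leaving out both number 2 libraries left 0 called, beside 1.83% of all genes, with 33 members at an unadjusted p under 0.05 (15.1% of all genes), 38 of 39 negative and a median of -0.47, against -0.40 with all libraries. Without the number 20 libraries and without the number in the fit 0 members were called, 11 had an unadjusted p under 0.05 (12.1% of all genes), 2.43% of all genes were called and the median of the members was -0.26. Leaving out WT 20 alone brought the median to -0.014, with 23 of 39 members negative.

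Pair by pair, 33, 37 and 38 of 39 members were lower in Exon2KO at numbers 2, 6 and 20, where 49%, 50.8% and 47.9% of all genes were lower. At all 3 numbers 33 of 39 were lower, against 20.9% of all genes, and 1 (Kif11) was higher, against 21.5%. Most members moved together between libraries, so these counts of genes are not independent observations of the genotype difference. Cdca8, Ndc80, Hmmr and Ect2 were lower at 2 of 3 numbers, and Kif20b at 1 of 3. The median log2 ratio was -0.27 at number 2, -0.27 at number 6 and -0.66 at number 20. A test of whether the genotype difference at number 20 differed from that at the other numbers called 0 members and 0.0067% of all genes (edgeR quasi-likelihood test). It had 2 residual degrees of freedom and low power, so 0 calls do not show an equal difference. The estimate was negative, with Exon2KO further below WT at number 20, for 38 of 39 members and for 7441 of 14919 genes. Its median was -0.42 for the members and 0.00070 for all genes. In it 6 of 39 members, 15.4%, had an unadjusted p under 0.05, against 3.04% of all genes: Cdca8, Kif20b, Kif23, Hmmr, Racgap1 and Mki67.

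**Figure D2:**
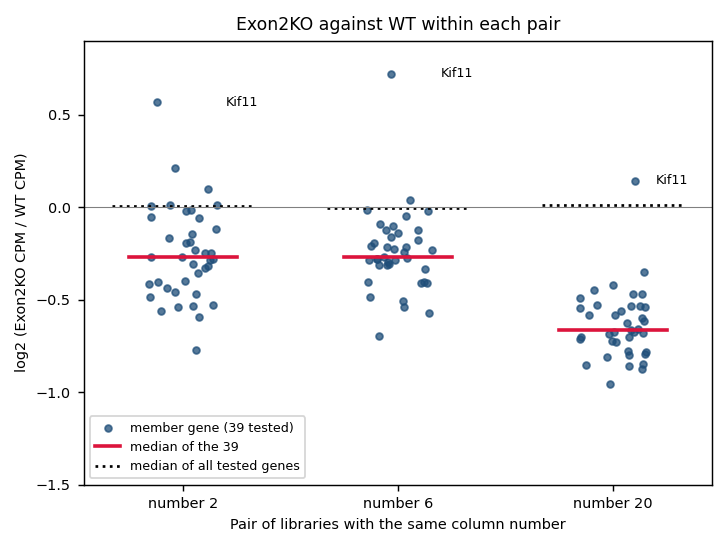
Log2 ratio of Exon2KO to WT CPM for each of the 39 tested genes (points) within the 3 pairs of libraries that share a column number, with the median of the 39 (red line) and of all tested genes (dotted line). The medians are -0.27, -0.27 and -0.66, and Kif11 is the gene above 0 in every pair.

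Markers of Treg and other cells were compared between the genotypes; 5.79% of all genes were called lower with the number in the fit and 1.58% without it. Of the 6 Treg and T cell markers, 3 (Il2ra, Ctla4 and Ikzf2) fell in Exon2KO with and without the number in the fit. The other 3 had positive values that did not pass the test, with the number in the fit 0.19 for Foxp3, 0.22 for Cd4 and 0.014 for Cd3e; for Cd4 all Exon2KO libraries lay above all WT libraries. The summed level of 5 B cell markers was 31.1 to 31.9 CPM in WT and 24.8 to 27.6 CPM in Exon2KO, and Cd79b was the 1 of them that fell with the number in the fit. Of the germinal centre B and plasma cell list (15.95 to 34.1 CPM in WT, 11.3 to 21.5 CPM in Exon2KO), 3 of 5 were tested and 1, Jchain, fell with the number in the fit. The summed level of 5 CD8 T and NK cell markers was 19.2 to 20.8 CPM in WT and 21.3 to 32.98 CPM in Exon2KO, with none called. The summed level of the myeloid and dendritic cell list was 34.96, 34.5 and 77.8 CPM in WT 2, 6 and 20 and 29.6, 29.96 and 63.5 CPM in Exon2KO. For the erythroid and megakaryocyte list it was 9.40, 15.7 and 4.93 CPM in WT and 8.17, 11.5 and 3.21 CPM in Exon2KO. Both sums were lower in Exon2KO at each number, as those of the mitotic genes were. The same held for the Treg and T cell, the B cell, and the germinal centre B and plasma cell sums. The CD8 T and NK cell sum and the stromal, endothelial and epithelial sum were higher in Exon2KO at each number. With the number in the fit 1 of 7 myeloid and dendritic cell markers, Lyz2, fell. Of 4 stromal, endothelial and epithelial markers 3 were tested. With the number in the fit Epcam fell and Pecam1 rose, beside 3.93% of all genes called higher. Without the number in the fit 1 of these 3 was called. The part of these cells in the genotype difference of the mitotic genes was not tested.

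Values below are CPM in the order of the numbers 2, 6 and 20, fold changes are log2 values of Exon2KO over WT with the column number in the fit and their standard error, and "called" refers to that fit unless another is named. Among the cyclins and their kinase, Ccna2 and Ccnb1 fell. Ccna2, the cyclin that acts in S phase and G2 (chr3:36564865-36572150), was at 20.5, 28.6 and 50.4 in WT and 18.6, 23.3 and 32.9 in Exon2KO. Ccnb1, the main mitotic cyclin (chr13:100778650-100786570), was at 15.6, 15.3 and 31.3 in WT and 11.6, 10.7 and 16.1 in Exon2KO. The highest Exon2KO library lay just above WT 2 and WT 6 for Ccnb1 and further above them for Ccna2. Ccnb1 had a fold change of -0.65 ± 0.12 (adjusted p = 0.00324) and Ccna2 one of -0.37 ± 0.10 (adjusted p = 0.0338). Without the number in the fit Ccnb1 had the smallest adjusted p of all members, 0.448.

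Ccnb2, the other B-type cyclin (chr9:70407692-70421547), and Cdk1, the kinase they activate (chr10:69335146-69352938), were not called. Ccnb2 was at 17.6, 19.9 and 33.5 in WT and 14.6, 18.3 and 23.1 in Exon2KO. Cdk1 was at 11.7, 12.6 and 25.8 in WT and 8.34, 10.7 and 19.2 in Exon2KO. Both were lower in Exon2KO at each number, with adjusted p of 0.0821 and 0.0555. Foxm1, a transcription factor that drives G2 and mitotic genes (chr6:128362967-128376146), was at 24.1, 25.9 and 46.0 in WT and 19.2, 22.3 and 30.7 in Exon2KO, and fell by 0.38 ± 0.10 (adjusted p = 0.0199).

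Of the kinases of mitotic entry and the centrosome, neither of the tested ones was called. Plk1, which acts from mitotic entry to cytokinesis (chr7:122159439-122169873), was at 14.98, 17.2 and 31.2 in WT and 12.6, 15.3 and 22.6 in Exon2KO. Aurka, which matures centrosomes and builds the spindle, was at 10.1, 12.1 and 24.2 in WT and 8.89, 9.59 and 13.8 in Exon2KO. Both were lower in Exon2KO at each number, with adjusted p of 0.102 for Plk1 and 0.0502 for Aurka, just outside the threshold.

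Among the spindle checkpoint genes Ttk and Bub1b fell. Ttk, the kinase that starts checkpoint signalling (chr9:83834689-83872389), was at 4.62, 4.57 and 11.4 in WT and 3.06, 2.82 and 6.58 in Exon2KO. Bub1b, which encodes the inhibitor BubR1, was at 22.8, 26.2 and 49.9 in WT and 15.8, 21.5 and 31.1 in Exon2KO. Bub1, a kinase of the kinetochore, was at 8.11, 9.91 and 26.5 in WT and 8.002, 9.59 and 17.2 in Exon2KO. The genotypes lay almost level for Bub1 at numbers 2 and 6 and apart at 20, whereas Ttk and Bub1b were lower in Exon2KO at each number by more. Ttk had the most negative fold change of the members, -0.70 ± 0.19 (adjusted p = 0.0293), and Bub1b had -0.50 ± 0.10 (adjusted p = 0.00386), while Bub1 had -0.26 ± 0.14 (adjusted p = 0.329).

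Of the chromosomal passenger complex, which corrects wrong attachments of chromosomes, the kinase and the survivin subunit fell. Aurkb, its kinase, was at 14.01, 20.7 and 35.3 in WT and 11.8, 15.6 and 19.6 in Exon2KO. Birc5, which encodes survivin, was at 14.6, 17.6 and 32.1 in WT and 10.9, 15.5 and 19.7 in Exon2KO. Aurkb in Exon2KO 20 did not reach WT 6, so that it is a member whose number 20 libraries did not both stand above the rest. The fold changes were -0.52 ± 0.12 for Aurkb (adjusted p = 0.0122) and -0.44 ± 0.12 for Birc5 (adjusted p = 0.0280). Cdca8, which encodes the subunit borealin, ranged from 16.5 to 37.8 CPM in WT and from 17.7 to 20.6 CPM in Exon2KO, and was not called.

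Of the ubiquitin ligase and anaphase genes, Espl1, Cdca3 and Ube2c fell, and Cdc20 was not called. Cdc20, the activator of the anaphase-promoting complex, was at 17.9, 23.3 and 35.7 in WT and 17.2, 17.6 and 24.5 in Exon2KO. Ube2c, the ubiquitin-conjugating enzyme of that complex, was at 15.8, 23.0 and 41.2 in WT and 15.2, 17.4 and 25.2 in Exon2KO. Both were nearly level between the genotypes at number 2 and lower in Exon2KO at the other numbers, with adjusted p of 0.0616 for Cdc20 and 0.0429 for Ube2c. Espl1, which encodes separase, the protease that frees sister chromatids, was at 20.9, 21.8 and 44.2 in WT and 14.2, 17.5 and 28.0 in Exon2KO. Cdca3, a protein that promotes mitotic entry, was at 15.4, 16.2 and 30.5 in WT and 12.3, 14.2 and 17.7 in Exon2KO. Espl1 was lower at each number and had a fold change of -0.52 ± 0.10 (adjusted p = 0.00359); for Cdca3 it was -0.44 ± 0.13 (adjusted p = 0.0360).

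Of the centromere and kinetochore genes, Cenpf and Cenpa fell. Cenpf, a large kinetochore protein of late G2 and mitosis, was at 19.9, 18.5 and 49.7 in WT and 13.7, 14.9 and 28.7 in Exon2KO. Cenpa, the histone H3 variant of centromeres, was at 58.0, 74.6 and 82.8 in WT and 50.8, 61.1 and 65.0 in Exon2KO. Cenpa varied least with the number among the called members, 0.32 above the mean of 2 and 6 in WT 20 on the log2 scale, and its standard error was among the smallest. Cenpf had the smallest adjusted p of the members, 0.00297, with a fold change of -0.56 ± 0.11, and Cenpa had -0.28 ± 0.07 (adjusted p = 0.0148). Cenpe, a kinesin of the kinetochore, was at 19.0, 20.9 and 46.4 in WT and 16.9, 19.1 and 30.9 in Exon2KO. Ndc80, a microtubule-binding subunit of the kinetochore, was at 12.8, 15.5 and 26.7 in WT and 12.9, 15.3 and 18.4 in Exon2KO. Ndc80 was level at numbers 2 and 6 and separated at 20, and neither of these was called (adjusted p = 0.0919 for Cenpe and 0.428 for Ndc80).

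The 7 kinesins, motor proteins that move along microtubules, held both the fallen members Kif15, Kif2c and Kif20a and the member with the opposite sign. Kif15, a spindle motor, was at 16.9, 19.3 and 40.3 in WT and 14.3, 15.9 and 24.4 in Exon2KO. Kif2c, which dismantles microtubule ends at centromeres, was at 9.02, 9.69 and 16.7 in WT and 6.22, 6.92 and 12.2 in Exon2KO. Kif20a, a motor of cytokinesis, was at 19.0, 18.8 and 32.9 in WT and 13.8, 15.6 and 23.7 in Exon2KO. All of them were lower in Exon2KO at each number, with fold changes of -0.43, -0.49 and -0.40 and adjusted p of 0.0254, 0.0371 and 0.0195. Kif4, which organises chromosomes and the midzone, and Kif23, a subunit of centralspindlin, ran from 8.93 to 23.5 CPM and from 15.9 to 40.7 CPM and were not called. Kif20b, a motor of cytokinesis, was at 21.7 to 34.2 CPM in WT and 21.9 to 25.6 CPM in Exon2KO, and was not called.

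Kif11, the motor that pushes the spindle poles apart (chr19:37376403-37421859), went against the other 38 tested genes. It was at 1.99, 5.73 and 4.69 in WT and 2.95, 9.44 and 5.18 in Exon2KO. Exon2KO was the higher library at each number, and the highest value was in Exon2KO 6, not in a number 20 library. Its fold change was 0.48 ± 0.21 (adjusted p = 0.194), so the difference did not pass the test, and it rested on 570 counts over all libraries. Without Exon2KO 6 the value from the fit without the number was -0.04.

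Of the spindle-associated genes, 4 of 6 fell. Prc1, which bundles microtubules of the midzone, was at 23.8, 21.2 and 41.2 in WT and 13.9, 18.4 and 25.4 in Exon2KO. Nusap1, a microtubule-binding protein near chromosomes, was at 16.5, 23.6 and 38.9 in WT and 13.3, 19.1 and 21.6 in Exon2KO. Spag5, which encodes astrin, was at 16.4, 17.8 and 37.7 in WT and 12.4, 13.4 and 25.5 in Exon2KO. These were lower in Exon2KO at each number, with fold changes of -0.56 ± 0.11, -0.50 ± 0.12 and -0.47 ± 0.10 and adjusted p of 0.00501, 0.0138 and 0.00752. Tpx2, which activates Aurora A and nucleates microtubules, was at 25.1, 25.01 and 49.97 in WT and 18.1, 24.6 and 31.1 in Exon2KO. Hmmr, a spindle assembly protein and hyaluronan receptor, was at 9.83, 14.1 and 25.3 in WT and 11.4, 11.6 and 13.95 in Exon2KO. Tpx2 was called close to the threshold (adjusted p = 0.0489), while Hmmr was higher in Exon2KO at number 2 and lower at the others (adjusted p = 0.337). Ckap2l, a spindle protein, ran from 8.95 to 23.1 CPM and was not called.

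Of the cytokinesis genes Anln and Racgap1 fell. Anln, which encodes the actin-binding protein anillin of the contractile ring, was at 5.80, 6.17 and 13.9 in WT and 4.39, 4.15 and 8.10 in Exon2KO. Racgap1, a subunit of centralspindlin, was at 47.1, 51.5 and 84.5 in WT and 39.1, 47.9 and 53.3 in Exon2KO. Anln was lower by a log2 fold change of -0.60 ± 0.17 (adjusted p = 0.0385) and Racgap1 by -0.35 ± 0.10 (adjusted p = 0.0423); the difference of Racgap1 was small at number 6. Ect2, the exchange factor that activates RhoA for furrowing, ran from 8.05 to 21.5 CPM and was not called.

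Mki67 and Top2a, genes of chromosome structure, had the highest CPM of the 40 and together made up 27.3% to 31.1% of their summed level in each library. Mki67, which encodes the Ki-67 protein that coats mitotic chromosomes and is used as a marker of dividing cells (chr7:135689784-135716361), was at 139.9, 148 and 332 in WT and 115, 127 and 208 in Exon2KO. Top2a, the topoisomerase that untangles sister chromatids (chr11:98992943-99024189), was at 113, 129 and 265 in WT and 93.4, 109.5 and 175 in Exon2KO. Both fell at a narrow error, Mki67 by 0.40 ± 0.08 (adjusted p = 0.0109) and Top2a by 0.38 ± 0.07 (adjusted p = 0.00382). Their group means without regard to the number were 207 ± 109 CPM against 150.0 ± 50.7 CPM for Mki67 and 169 ± 83.7 CPM against 126 ± 43.2 CPM for Top2a (SD, n = 3). Without the number 20 libraries the adjusted p in the fit with the number was 0.0474 for Mki67 and 0.0458 for Top2a.

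**Figure D3:**
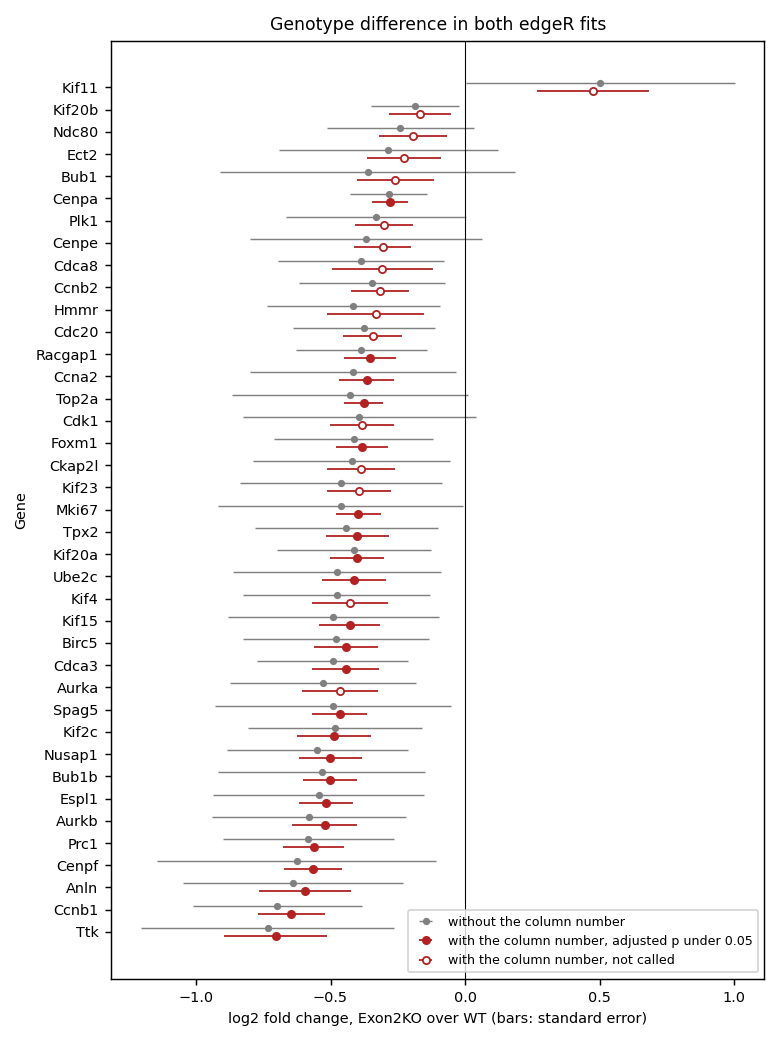
Log2 fold change of Exon2KO over WT for the 39 tested genes, sorted by value, with bars for the standard error, from the edgeR fit without the column number (grey) and with it (red, filled where the adjusted p is under 0.05). The points of both fits lie close together, from Ttk at -0.73 and -0.70 to Kif11 at 0.50 and 0.48, and the bars of the fit with the number are shorter.

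Levels of different genes were compared per length, as CPM per kilobase of the deposited gene length. In WT the highest members were Mki67 (20.5 ± 10.8), Top2a (18.8 ± 9.28), Ccnb2 (15.4 ± 5.61), Cdc20 (13.7 ± 4.89), Cenpa (12.3 ± 2.15) and Ube2c (10.3 ± 5.05 CPM per kilobase; SD, n = 3). Neighbours in this order differed by less than their spread between libraries. Within single libraries Mki67, Top2a, Ccnb2 and Cdc20 kept this order in every library. Cdc20 and Cenpa, and Cenpa and Ube2c, changed places between libraries. The lowest were Nek2 (0.0929 ± 0.0550), Kif11 (0.554 ± 0.259), Anln (0.951 ± 0.504) and Ttk (1.40 ± 0.805 CPM per kilobase; SD, n = 3). The median level of the 40 genes was 4.76 CPM per kilobase in WT and 3.5 in Exon2KO. In the comparison of the authors' deposited table, 39 of 40 members had a log2 fold change below 0, and the smallest adjusted p among them was 0.158, for Ccnb1.

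The promoters of these genes were examined because mitotic genes are known to be repressed in resting cells through a short element, the cell cycle genes homology region (CHR, letters TTTGAA), and to be activated through CCAAT boxes bound by NF-Y. RefSeq windows on GRCm38.p6, from 250 bases before to 50 bases after the gene start, were found for 35 of the 40 members; Aurkb, Ccna2, Foxm1, Kif20a and Tpx2 had none in the table used. The letters TTTGAA, on either strand, were in 29 of 35 (82.9%), against 14.6% of 9892 tested genes and 20.2% of all 27025 genes with a window. CCAAT, on either strand, was in 28 of 35 (80%), against 42.8% of tested genes and 41.1% of all. Among related lists, TTTGAA was in 33 of 69 promoters of other mitotic genes (47.8%) and CCAAT in 44 of 69 (63.8%). Both were in 24 of 35 (68.6%), against 7.19% and 8.97%, and 37.7% of other mitotic genes. TTCGAA, a variant of the element, was in 3 of 35 (8.57%), against 2.45% of tested genes, 11.6% of other mitotic and 11.1% of S phase promoters, and the E2F octamers TTTGGCGC, TTTCCCGC, TTTGCCGC and TTTCGCGC were in 2 of 35 (5.71%), against 4.76%. Ect2 and Prc1 have 2 overlapping windows each, and with each site counted once 30 of 38 TTTGAA sites lay within 50 bases of a start; 1, in Cdca8, shared bases with a CCAAT match.

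**Figure D4:**
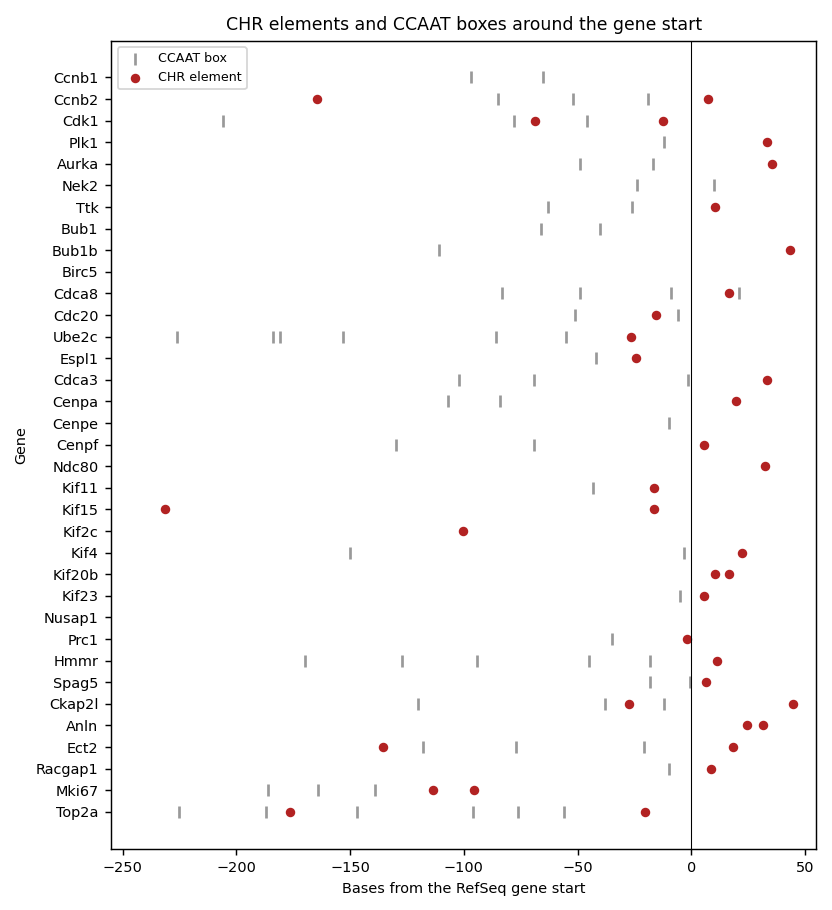
Position of TTTGAA matches (red dots, either strand) and CCAAT matches (grey ticks, either strand) in bases from the RefSeq gene start, for the 35 members with a window, 1 window per gene. Of 38 distinct TTTGAA sites, 30 are within 50 bases of a start, and CCAAT matches lie mostly before it.

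The following 120 bases before the gene start, 5′ to 3′ on the gene's strand, show the layout for the most abundant members (Mki67, Top2a), for the mitotic kinase, the ligase activator and a spindle protein (Cdk1, Cdc20, Ckap2l), for the member that went against the rest (Kif11) and for members without TTTGAA (Bub1, Ccnb1). Capitals mark TTTGAA and CCAAT, or TTCAAA and ATTGG where the letters are on the opposite strand.
Mki67: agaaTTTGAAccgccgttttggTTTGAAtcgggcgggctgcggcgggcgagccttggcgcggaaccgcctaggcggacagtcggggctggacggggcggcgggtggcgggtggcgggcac
Top2a: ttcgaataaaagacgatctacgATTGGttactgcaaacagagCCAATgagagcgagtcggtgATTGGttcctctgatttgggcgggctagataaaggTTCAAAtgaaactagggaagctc
Cdk1: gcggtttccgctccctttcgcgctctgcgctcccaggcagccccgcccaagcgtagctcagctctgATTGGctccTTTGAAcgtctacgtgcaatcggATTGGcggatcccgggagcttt
Cdc20: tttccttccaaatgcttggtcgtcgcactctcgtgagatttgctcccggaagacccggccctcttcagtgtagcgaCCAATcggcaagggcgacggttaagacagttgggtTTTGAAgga
Ckap2l: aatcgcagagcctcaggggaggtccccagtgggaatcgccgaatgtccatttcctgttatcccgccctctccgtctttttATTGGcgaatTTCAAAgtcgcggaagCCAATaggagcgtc
Kif11: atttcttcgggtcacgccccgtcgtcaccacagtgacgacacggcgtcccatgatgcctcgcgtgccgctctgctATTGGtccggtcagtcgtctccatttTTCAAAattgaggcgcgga
Bub1: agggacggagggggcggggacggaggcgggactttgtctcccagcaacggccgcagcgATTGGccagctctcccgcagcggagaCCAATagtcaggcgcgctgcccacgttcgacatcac
Ccnb1: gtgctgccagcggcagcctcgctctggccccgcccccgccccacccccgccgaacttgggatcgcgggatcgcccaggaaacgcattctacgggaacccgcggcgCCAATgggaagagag

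These windows lie at chr7:135716380-135716499 (minus strand) for Mki67, chr11:99024190-99024309 (minus) for Top2a, chr10:69352939-69353058 (minus) for Cdk1, chr4:118437353-118437472 (minus) for Cdc20, chr2:129297213-129297332 (minus) for Ckap2l, chr19:37376262-37376381 (plus) for Kif11, chr2:127831866-127831985 (minus) for Bub1 and chr13:100786571-100786690 (minus) for Ccnb1. They end before the gene as the deposited table places it, which is 26, 9, 6 and 84 bases short of the RefSeq start for Cdk1, Cdc20, Bub1 and Ccnb1. Kif11, which went against the rest in level, has a CCAAT match ahead of a TTTGAA match, as Cdc20 and Top2a do. The 6 members whose windows held no TTTGAA were Birc5, Bub1, Ccnb1, Cenpe, Nek2 and Nusap1; of these Birc5, Ccnb1 and Nusap1 fell and Bub1 and Cenpe were not called. The 7 without CCAAT were Anln, Birc5, Kif15, Kif20b, Kif2c, Ndc80 and Nusap1. A match of letters is not evidence of binding, and no match says only that these letters are absent from this window.

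Other cell cycle genes were compared through lists of their roles. Of 86 other mitotic genes tested, 77 had a negative fold change without the number in the fit, with a median of -0.35. With the number in the fit 13 fell and none rose, beside 5.79% of all genes called lower. The 5 with the smallest p were Cks2, a cofactor of Cdk1 (-0.48 ± 0.10, adjusted p = 0.00484), the condensin subunits Smc2 (-0.34 ± 0.07, adjusted p = 0.00598) and Ncapg (-0.57 ± 0.12, adjusted p = 0.00785), Incenp, the scaffold of the passenger complex (-0.34 ± 0.08, adjusted p = 0.0104), and the chromosome motor Kif22 (-0.39 ± 0.09, adjusted p = 0.0137). Column numbers differed for 53 of the 86, beside 10.4% of all genes.

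Of 21 S phase genes, 20 had a negative value (48.2% of all genes) with a median of -0.19, and 5 fell with the number in the fit (5.79% of all genes). They were Rfc3, part of the clamp loader (-0.47 ± 0.11), the helicase subunits Cdc45 (-0.55 ± 0.13) and Mcm6 (-0.23 ± 0.06), the ribonucleotide reductase subunit Rrm1 (-0.28 ± 0.08) and Uhrf1, which maintains DNA methylation (-0.24 ± 0.07), with adjusted p from 0.0137 for Rfc3 to 0.0425 for Uhrf1. The excess of number 20 had a median of 0.58 in WT and 0.41 in Exon2KO for these genes. The median of the S phase list was thus less negative than the -0.44 of the mitotic members, and its excess at number 20 smaller than their 1.04 and 0.65; whether the lists differ was not tested. In 18 S phase promoters TTTGAA was in 3 (16.7%), CCAAT in 13 (72.2%) and the E2F octamers in 9 (50%), against 82.9%, 80% and 5.71% of the members.

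Calls among other regulators of the cell cycle are to be read beside the 5.79% of all genes called lower and 3.93% called higher. Of 10 genes of the DREAM and B-Myb complexes, which repress and activate the mitotic genes, 1 fell, Tfdp1, a partner of the E2F factors (-0.33 ± 0.07, adjusted p = 0.00419). Of 8 tested CDK inhibitors and pocket proteins, Cdkn2d, an inhibitor of Cdk4 and Cdk6, rose (0.46 ± 0.08, adjusted p = 0.000902) and Rb1, the retinoblastoma protein, rose (0.34 ± 0.06, adjusted p = 0.00248), while Rbl2, the pocket protein p130, fell (-0.32 ± 0.07, adjusted p = 0.00726). Cdkn2d was at 49.2, 45.9 and 62.1 CPM in WT and 75.9, 54.9 and 87.9 CPM in Exon2KO, and was the higher library in Exon2KO at each number. None of 10 G1 cyclins, kinases and Myc genes was called, with a median of 0.03 and 3 at an unadjusted p under 0.05, and none of 13 subunits and activators of the anaphase-promoting complex, with a median of 0.02 and 2 at an unadjusted p under 0.05, beside 21.5% of all genes at that p with the number in the fit. These calls came with the number in the fit. Without it none of the genes in the 6 lists was called by edgeR, DESeq2 or limma-voom, and in edgeR an unadjusted p under 0.05 was reached by 3 other mitotic genes, 1 S phase gene, 1 gene of the DREAM and B-Myb complexes, 2 inhibitors and pocket proteins, 1 subunit of the anaphase-promoting complex and 0 G1 genes. Without the number 20 libraries, 1 other mitotic gene (Cks2, lower), 0 S phase genes and 2 inhibitors and pocket proteins (Cdkn2d and Rb1, higher) were called in the fit with the number, and none of the other lists; Tfdp1 was no longer called (-0.26, adjusted p = 0.0610).

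**Figure D5:**
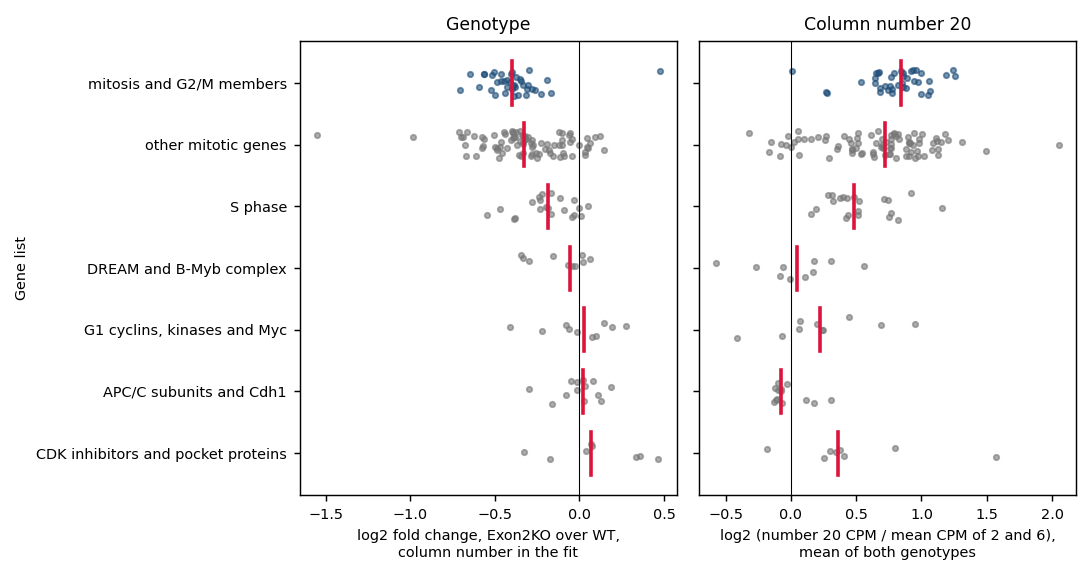
Left, log2 fold change of Exon2KO over WT with the column number in the fit for each tested gene (points) of the mitosis and G2/M members and of 6 other cell cycle lists, with the median as a red line; right, log2 ratio of number 20 to the mean of numbers 2 and 6, averaged over both genotypes. The members have the most negative median on the left, -0.40, and on the right the medians of the mitotic, S phase, G1 and inhibitor lists lie above 0, with some genes of the other mitotic, G1 and inhibitor lists below it, while the anaphase-promoting complex and DREAM lists centre near 0.

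Some members share their position with a gene on the other strand: Ccna2 with Exosc9, Cdc20 with Elovl1, Cdca8 with 9930104L06Rik, Kif20a with Cdc23, Kif4 with Pdzd11, Nusap1 with Oip5 and Prc1 with Rccd1. Whether the counting used strand is not given in the sources used here, so reads in the shared parts cannot be told apart. Other members overlap genes with few counts. Kif11 is among them, with AC137605.2 on the same strand (1 count over all libraries) and AC137605.4 on the other (0 counts). The part of such overlaps in the level of Kif11 was not tested. Ccnb1 and Ccnb2 also have processed pseudogenes in the table, so reads of these cyclins may have been split.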

How the data were processed

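Total RNA of Treg cells was sequenced in 3 WT and 3 Exon2KO libraries, prepared with an Illumina library kit per the labels' protocols. The authors deposited 1 table with raw counts per gene and library, group means of scaled counts (a signal), log2 fold changes, p-values and adjusted p-values of Exon2KO against WT, and gene length in bases, per the file headers. HISAT2 2.0.5, StringTie 1.3.3b, featureCounts 1.5.0-p3, DESeq2 1.16.1 and mm10 are named in the submitters' processing notes, without their order. The 6 FPKM columns were not used here. The positions of all 40 members equal those of GENCODE M21 on GRCm38.

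Counts were tested with edgeR 4.0.16 in R 4.3.3: filterByExpr, TMM scaling, a robust quasi-likelihood test and Benjamini-Hochberg adjustment over 14919 genes, called at an adjusted p under 0.05. A second fit had the column number as a block. The columns could not be matched to the replicate numbers of the titles, so the block used the numbers in the column names. The deviations of same-numbered libraries from their group means correlated at 0.271 (number 2), 0.369 (6) and 0.494 (20) across genes. On these values, from the same counts as the tests, the numbers were taken to pair the libraries, and no label says that they do. Libraries of different numbers were not compared in this way. Alternatives were DESeq2 1.42.0, limma 3.58.1 (voom), other filters and scalings, and libraries left out. The scripts were tested on simulated data. Deposited counts summed to 17998216 to 21003496 per library. The replicates of a genotype differed by more than sampling noise. The count of 3 used as a floor covers counting error only. All 40 members are named, with the level in each library for the main regulators and for each one called; of other lists at most 5 called genes were named, by smallest p, except Plk4 and Oip5, chosen after their values were seen. Members, lists and tests were chosen with earlier results of these data known. The B cell markers by column number are not reported here.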

Additional observations from a re-analysis of the deposited data

How the results depend on the processing

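Filters, scalings and other tools kept all members at their sign and uncalled; the block on the column number moved calls. The count of members called went from 0 to 23 with the block, and with the block to 24, 2 and 0 when both libraries of number 6, 20 or 2 were left out. Without the block it stayed 0 when any single library, or both of number 20, were left out. The 348 genes called of all became 617 without a count filter, 643 with DESeq2, 1450 with the block, 1441 and 900 with the block without number 6 or 20, 277 without number 2, and 86 to 314 with 1 library left out. The median of the members ran from -0.70 to -0.014 with 1 library left out. Without WT 20, 15 members turned positive, which gives ranges of -0.67 to 0.020 for Ccna2, -0.82 to 0.070 for Cdk1, -0.60 to 0.065 for Plk1, -0.76 to 0.36 for Bub1, -0.61 to 0.075 for Cdca8, -0.68 to 0.16 for Cenpe, -0.44 to 0.13 for Ndc80, -0.76 to 0.0068 for Kif15, -0.32 to 0.023 for Kif20b, -0.70 to 0.034 for Kif23, -0.68 to 0.043 for Hmmr, -0.75 to 0.031 for Ckap2l, -0.59 to 0.22 for Ect2, -0.78 to 0.060 for Mki67 and -0.74 to 0.055 for Top2a. Kif11 ran from -0.038 (without Exon2KO 6) to 0.82. Without both number 20 libraries Cdca8 was at 0.00038 and Kif20b at 0.024, and with the block at 0.0025 and 0.023. Scaling moved the median of all genes little (TMM 0.0084, RLE 0.0095, upper quartile -0.0068). The 36 members that differed between numbers stayed so with RLE and with a filter of 10 counts in every library. The test for a different genotype effect at number 20, of low power, also stayed at 0 members called. The cause of these shifts was not tested. Depth limits Nek2 (41 counts), Kif11 (570) and Ttk most.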

Other observations

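Among genes that are not members, Plk4, the kinase that starts centriole duplication, and Oip5, which loads centromeric histone, fell most in the list of other mitotic genes with the column number in the fit; they were chosen after their values were seen. Plk4 was at 1.88, 0.441 and 6.29 CPM in WT 2, 6 and 20 and at 0.389, 0.564 and 1.52 CPM in Exon2KO, a log2 fold change of -1.55 ± 0.44 (edgeR quasi-likelihood test, adjusted p = 0.0409), and it was lower in Exon2KO at 2 of 3 numbers, from 7 to 134 counts per library. Oip5 was at 2.09, 2.70 and 3.80 CPM in WT and 1.11, 1.18 and 2.08 CPM in Exon2KO, a log2 fold change of -0.98 ± 0.29 (adjusted p = 0.0420), and was lower at 3 of 3 numbers. Oip5 overlaps Nusap1 on the other strand.

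Counts of the pseudogene Ccnb2-ps were 67 in WT 2, 70 in WT 6, 70 in WT 20, 78 in Exon2KO 2, 74 in Exon2KO 6 and 65 in Exon2KO 20, so that it lacked the excess of number 20 seen for Ccnb2 itself.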
